A study of Mus musculus with 21 samples.

Results

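The circadian clock genes described here are 10 genes that form the core loop of the molecular clock or its best known output, namely *Arntl*, *Clock*, *Npas2*, *Cry1*, *Per1*, *Per2*, *Per3*, *Nr1d1*, *Nr1d2* and *Dbp*. They were chosen by gene symbol among the 55491 genes of the skin table and of the lymph node table. All 10 were found once in each table, and all 10 passed the filter on low counts, which kept 19101 genes in skin and 16173 in lymph nodes. Bulk RNA was measured in mice transgenic (TG) for *Ifnk*, the gene of interferon kappa, and in BALB/c wild-type (WT) mice. Per the methods, the keratin 14 promoter drives the transgene in the epidermis, and the TG line was made on C57Bl/6 and then backcrossed onto BALB/c. The skin libraries came from mice aged 12 months, with 3 libraries of unaffected WT skin, 2 of nonlesional (NL) *Ifnk* TG skin and 4 of lesional (L) *Ifnk* TG skin, none of it UV-treated. The inguinal, skin-draining lymph node (SDLN) libraries came from WT and *Ifnk* TG mice that were either untreated (NoTx) or given UVB at 250 mJ/cm2 on 3 days a week for 2 weeks and observed for 2 more weeks, with 3 libraries in each of the 4 groups. The labels give no age for the mice behind the node libraries.

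The clock is a feedback loop within nearly every cell. ARNTL (also called BMAL1) pairs with CLOCK or its relative NPAS2 and binds E-boxes to switch on the *Per* and *Cry* genes, whose proteins then repress the pair. In a second loop, the nuclear receptors NR1D1 and NR1D2 (REV-ERBα and REV-ERBβ) repress *Arntl* and *Npas2* at ROR elements, which the ROR receptors activate, and DBP acts on D-boxes against the repressor NFIL3. As *Arntl* peaks at the opposite time of day to *Nr1d1*, *Per3* and *Dbp*, the hour of harvest can set the level of each of these genes. The mice were kept on a 12:12-hour light and dark cycle, and the hour of harvest is not given in the sources used here. A difference in hour between groups and a difference in condition therefore cannot be told apart for any result below. Skin is known to keep its own clock, in keratinocytes, hair follicles and the tissue beneath them.

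The E-box, ROR element and D-box by which these genes act on each other are shown first, as background to the loops described above. Windows from 250 bases before to 50 bases after each start site came from RefSeq on GRCm38.p6, and 9 of the 10 genes were in that table, with *Per2* not among them. The letters searched on both strands were CACGTG for the E-box, CACGTT for the E′-box, TTATGTAA or TTACGTAA for the D-box and TAGGTCA or TGGGTCA for the ROR element. Of 32851 promoter windows of the same length, 7.15% held the E-box, 4.68% the E′-box, 1.06% the D-box and 6.45% the ROR element. RefSeq listed 13 windows for the 9 genes, since some have more than 1 start site, and at least 1 of the 4 motifs was found in 5 of the 9 genes. The *Per1* window shown belongs to a start site inside the gene as GENCODE M21 places it. In each line below the matches are in capitals, each read 5′ to 3′ on the strand of the gene, so that a match on the other strand appears as its complement (AACGTG for the E′-box, TGACCTA for the ROR element).
*Per1*, chr11:69098759-69098812, plus strand, E-box starting 166 bases before the start site: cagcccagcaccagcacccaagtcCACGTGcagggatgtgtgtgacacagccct
*Cry1*, chr10:85185085-85185157, minus strand, E′-box and E-box starting 79 and 60 bases before it: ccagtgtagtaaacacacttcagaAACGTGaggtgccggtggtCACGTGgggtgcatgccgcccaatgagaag
*Nr1d1*, chr11:98775378-98775429, minus strand, E′-box starting 28 bases before it: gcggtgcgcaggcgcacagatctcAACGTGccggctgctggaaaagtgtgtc
*Per3*, chr4:151044792-151044894, minus strand, D-boxes starting 205 and 158 bases before it: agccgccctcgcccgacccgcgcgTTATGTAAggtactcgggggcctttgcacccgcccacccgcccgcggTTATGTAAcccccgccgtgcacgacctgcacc
*Arntl*, chr7:113207531-113207557, plus strand, ROR element starting 31 bases into the transcript: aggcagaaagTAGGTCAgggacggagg
*Nfil3*, chr13:52981040-52981075, minus strand, ROR element starting 12 bases before it: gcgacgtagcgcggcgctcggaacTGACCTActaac
*Nfil3* is no member of the 10 and is shown because it is the opponent of *Dbp* at D-boxes. These matches describe the letters of the windows, and binding was not measured.

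Skin libraries held 40499078 to 56511276 counts and node libraries 27599809 to 36428435. Levels are given as CPM, counts scaled to library size after TMM normalisation in edgeR. *Ifnk* itself had 0 counts in each of the 3 WT skin libraries, 6 and 0 in NL skin, 14, 11, 5 and 8 in L skin and 0 in all 12 node libraries, and whether transgene reads are counted under this gene was not tested. The sex, body site and mouse of origin of each library are not given, and the labels place all libraries in batch 1. Per the methods, lesional skin was taken wherever it was present and nonlesional skin from the back and like areas. For UV-treated nodes the paper's supplement gives 3 mice of each genotype, as many as there are libraries. For the other groups the labels do not say that libraries came from separate mice. The p-values therefore measure the spread between these libraries. Skin libraries differed in tissue makeup. All 10 skeletal muscle markers were detected, and their mean log2 CPM ran from 11.31 to 11.79 in WT and from 11.32 to 11.45 in NL skin, but it was 9.42, 1.19, 5.15 and 7.22 in L libraries 4, 5, 6 and 7. The mean of the 8 adipocyte markers ran from 9.88 to 10.55 in WT, from 9.70 to 9.99 in NL and from 5.75 to 8.76 in L skin. The 8 hair shaft keratins found in the files lay from -3.41 to -3.17 in WT and from 7.81 to 9.51 in L skin. The mean of the 6 keratinocyte markers ran from 9.48 to 9.76 in WT, from 10.26 to 10.37 in NL and from 9.57 to 10.78 in L skin, so that NL lay above WT. The 6 neutrophil markers summed to 10.2 to 20 CPM in WT and 63.3 to 572 CPM in L skin, and the 5 endothelial markers to 216 to 294 CPM in WT and 83.5 to 165 CPM in L skin. The mean log2 CPM of the 6 T cell markers ran from 0.55 to 1.33 in WT and from 1.66 to 3.07 in L skin. Their summed CPM overlapped, at 25.5 to 35.3 in WT and 25.1 to 58.8 in L skin. T cell and B cell markers were high in all nodes, with means from 8.00 to 8.45 and from 7.64 to 8.59. The T cell mean ran from 8.38 to 8.39 in NoTx and from 8.00 to 8.19 in UV-treated WT nodes, without overlap. In TG nodes it overlapped, at 8.21 to 8.3 and 8.09 to 8.45. In such bulk samples, fewer cells of a type and less RNA per cell cannot be told apart.

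Per kilobase of exon in the GENCODE M21 annotation, the order of the 10 genes differed between tissues. In WT skin *Nr1d1* stood highest, with a mean of 49.6 CPM per kilobase, ahead of *Nr1d2* at 22.9, *Dbp* at 17.2, *Per1* at 10.5 and *Clock* at 6.48, and no neighbours in this stretch overlapped in their libraries. *Cry1* at 3.49 overlapped with *Arntl* at 2.86, and *Per2* at 1.49 overlapped with *Per3* at 1.43, which overlapped with *Npas2* at 0.962. In NoTx WT nodes *Cry1* at 11.2 and *Nr1d2* at 11.0 CPM per kilobase led and overlapped, *Per1* at 6.97 and *Dbp* at 5.84 followed and also overlapped, and *Nr1d1* was eighth at 2.02. The 2 tissues came from separate tables, normalised separately, so these levels stand side by side with no test.

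In L skin, the repressor *Per1*, the nuclear receptors *Nr1d1* and *Nr1d2* and the activator *Clock* were lower than in WT skin, whereas the repressor *Cry1* was higher. Against WT, edgeR's quasi-likelihood test called 5 of the 10 genes at an adjusted p under 0.05, and it called 43.1% of all 19101 tested genes. The 4 lower genes stand beside a share of 20.2% called lower among all genes, and the 1 higher gene beside 23.0% called higher. The same 4 genes had every L library below every WT library, as did 23.4% of all genes, and *Cry1* had every L library above, as did 26.0%. The median log2 fold change of the 10 genes was -0.68, and that of all tested genes was 0.06.

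**Figure D1:**
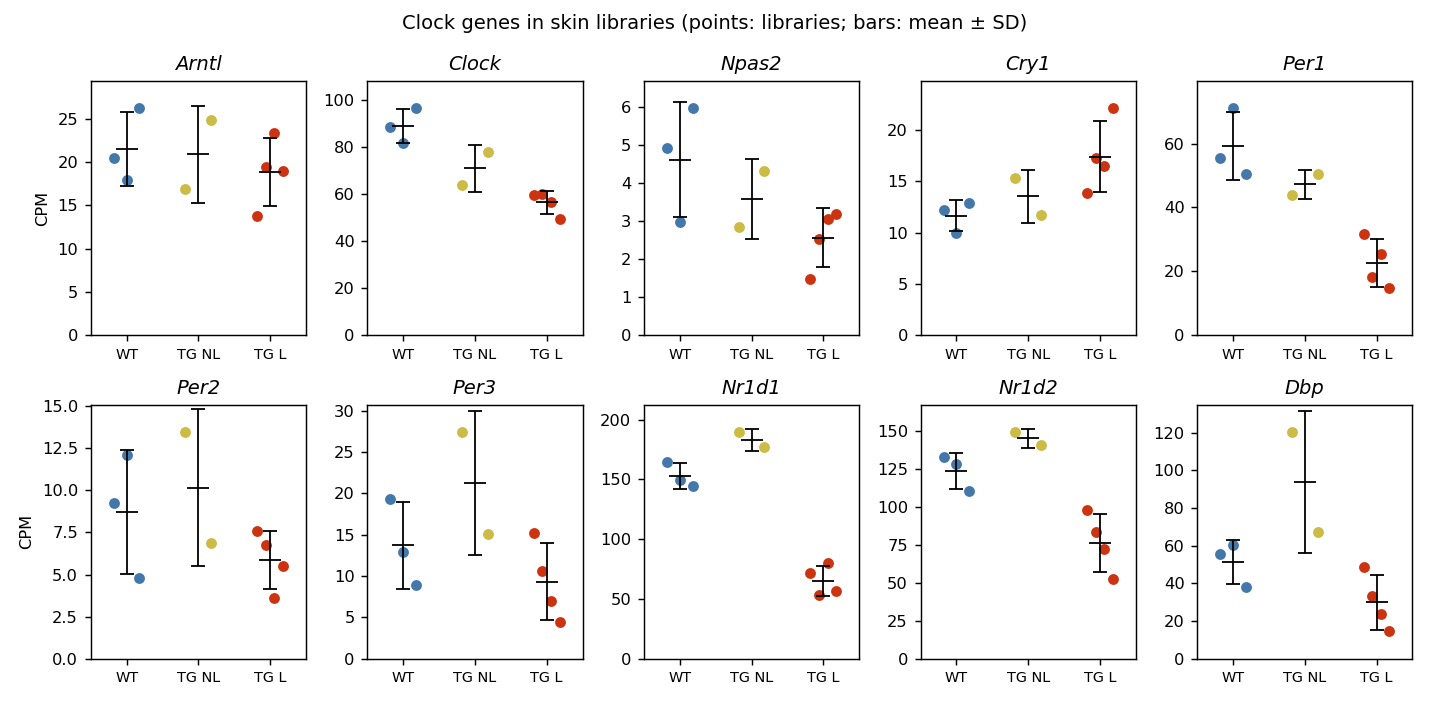
CPM of each clock gene (vertical axis, from 0) in every skin library, by group (WT, n = 3; TG NL, n = 2; TG L, n = 4), with points for libraries and black bars for the mean ± SD. The 4 L libraries of *Nr1d1* lie between 53.3 and 79.9 CPM and all NL and WT libraries at or above 144 CPM, while *Arntl* and *Per2* overlap among all groups.

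Among the activators, *Clock* (ENSMUSG00000029238, chr5:76209868-76304792) encodes the DNA-binding partner of ARNTL. Its level was 88.3, 81.9 and 96.5 CPM in WT libraries, 64.0 and 77.9 CPM in NL libraries and 59.5, 60.0, 56.8 and 49.6 CPM in L libraries. The 3 groups did not overlap, with NL between the others. *Clock* was 1.57-fold lower in L than in WT skin (log2 fold change -0.65 ± 0.11 SE, adjusted p = 0.00196 from edgeR). *Arntl* (chr7:113207465-113314126), its partner, overlapped among all groups, at 17.9 to 26.2 CPM in WT, 16.9 and 24.9 CPM in NL and 13.8 to 23.3 CPM in L skin. For *Arntl* the log2 fold change from WT to L was -0.19 with a 95% interval from -0.68 to 0.30. *Npas2*, the stand-in for *Clock*, was scarce in skin, at 4.90, 2.97 and 5.96 CPM in WT and 1.47, 2.52, 3.06 and 3.19 CPM in L libraries. Its adjusted p was 0.0709 from edgeR and 0.0365 from DESeq2, which called it lower in L than in WT skin.

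Among the repressors, *Per1* (ENSMUSG00000020893, chr11:69095217-69109960) had the largest fall of the 10 genes from WT to L skin. It was at 55.6, 71.1 and 50.6 CPM in WT, 44.0 and 50.5 CPM in NL and 31.6, 18.1, 25.4 and 14.9 CPM in L libraries. Every L library lay below every other library. *Per1* was 2.62-fold lower in L than in WT skin (log2 fold change -1.39 ± 0.25 SE, adjusted p = 0.00261 from edgeR) and 2.10-fold lower than in NL skin (-1.07 ± 0.27 SE, adjusted p = 0.0232). *Cry1* (ENSMUSG00000020038, chr10:85131700-85185064), which holds the E-box and E′-box shown above, was the 1 gene that was higher, at 12.2, 9.92 and 12.9 CPM in WT, 15.4 and 11.7 CPM in NL and 13.8, 17.2, 16.5 and 22.1 CPM in L libraries. It was 1.49-fold higher in L than in WT skin (log2 fold change 0.58 ± 0.19 SE, adjusted p = 0.0345 from edgeR). That call was lost in 6 of the 9 fits that left out 1 library, among them those without L 5, 6 or 7 and without any 1 of the WT libraries, with adjusted p up to 0.128, and it was also lost in a fit of L and WT libraries alone. *Cry1* and *Per1* moved in opposite directions, and a link between these changes and the motifs shown above was not tested.

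*Per2* and *Per3* encode relatives of PER1 that join the same repressor complex, and neither passed the test in any skin comparison in edgeR with all libraries. DESeq2 called *Per3* lower in L than in NL skin (log2 fold change -1.19, adjusted p = 0.0487 from DESeq2), as did edgeR without L 4. *Per2* was at 9.26, 12.1 and 4.77 CPM in WT and 7.56, 6.76, 3.59 and 5.53 CPM in L libraries. *Per3* was at 19.3, 12.9 and 8.95 CPM in WT, 27.4 and 15.1 CPM in NL and 15.2, 10.6, 7.05 and 4.41 CPM in L libraries. Both genes overlapped between L and WT skin, and both ran over a more than 2-fold range within WT skin. The 95% intervals of the log2 fold change from WT to L, -1.43 to 0.29 for *Per2* and -1.56 to 0.45 for *Per3*, include changes as large as those of *Nr1d1*.

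*Nr1d1* (ENSMUSG00000020889, chr11:98767932-98775333), the repressor of *Arntl*, had, of the 10 genes, the widest gap between L skin and both other groups. Its level was 165, 149 and 144 CPM in WT, 190 and 177 CPM in NL and 71.7, 53.3, 79.9 and 56.7 CPM in L libraries. The highest L library lay well below the lowest WT or NL library. *Nr1d1* was 2.34-fold lower in L than in WT skin (log2 fold change -1.22 ± 0.15 SE, adjusted p = 0.000432 from edgeR) and 2.80-fold lower than in NL skin (-1.49 ± 0.16 SE, adjusted p = 0.00099). It passed the test against both groups in all 9 alternative fits that kept every library and in all 9 that left 1 out. *Nr1d1* shares 263 exon bases with *Thra* on the opposite strand. Whether the counts used strand is not given in the sources used here, so reads from these bases cannot be told apart. *Thra*, a thyroid hormone receptor gene, was also lower in L than in WT skin, by a log2 fold change of -0.82 ± 0.09 (SE).

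*Nr1d2* (ENSMUSG00000021775, chr14:18204054-18239127), the closest relative of *Nr1d1*, followed the same order of groups. It was at 133, 128 and 110 CPM in WT, 149 and 141 CPM in NL and 97.6, 83.2, 72.0 and 52.6 CPM in L libraries, with no overlap between L and the rest. *Nr1d2* was 1.62-fold lower in L than in WT skin (log2 fold change -0.70 ± 0.19 SE, adjusted p = 0.016 from edgeR) and 1.90-fold lower than in NL skin (-0.93 ± 0.21 SE, adjusted p = 0.0136). Against WT the call was lost without WT 8 or WT 9 (adjusted p up to 0.0549), and against NL without either NL library (up to 0.0932).

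*Dbp* (ENSMUSG00000059824, chr7:45705088-45710203) is the D-box activator whose level is read as an output of the loop. It was at 55.5, 60.6 and 38.3 CPM in WT, 120 and 67.3 CPM in NL and 48.9, 33.2, 23.7 and 14.7 CPM in L libraries. L overlapped with WT and lay below both NL libraries. Against NL skin *Dbp* was 3.12-fold lower in L skin, with a log2 fold change of -1.64 ± 0.43 (SE) and an adjusted p of 0.0269 from edgeR, whereas against WT skin the change was -0.77 ± 0.39 (SE) with an adjusted p of 0.145. The call against NL was lost without NL 2, NL 3 or L 6, with adjusted p up to 0.215. *Dbp* shares 539 exon bases with *Sphk2* on the opposite strand, where reads again cannot be told apart. *Sphk2* did not pass the test in any skin comparison.

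Against NL skin, 4 of the 10 genes were called in L skin, all of them lower (*Nr1d1*, *Nr1d2*, *Per1* and *Dbp*), beside 25.0% of all genes called and 11.8% called lower. With *Clock* added, 5 of the 10 had every L library below both NL libraries, as did 24.7% of all genes. With 2 NL libraries, each of them weighed on the result, and without NL 2 or without NL 3 only *Nr1d1* was called. Both comparisons use the same L libraries.

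Between NL and WT skin, edgeR called 0 of the 10 genes and 0% of all genes. DESeq2 also called 0 of the 10, beside 0.309% of all genes to which it gave an adjusted p. At an unadjusted p under 0.05 there was 1 gene, *Clock*, lower in NL skin by a log2 fold change of -0.33 ± 0.13 (SE), beside 7.67% of all genes. *Nr1d1*, *Nr1d2* and *Dbp* had both NL libraries above all WT libraries, which 18.6% of all genes did, and *Clock* and *Per1* had both below, which 16.3% did. Keratinocyte markers were also higher in NL than in WT skin, as given above, and their part in these values was not tested. The widest 95% interval was that of *Per3*, from -0.56 to 1.82, so that larger differences than those called in L skin would not have been detected for some of the genes.

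**Figure D2:**
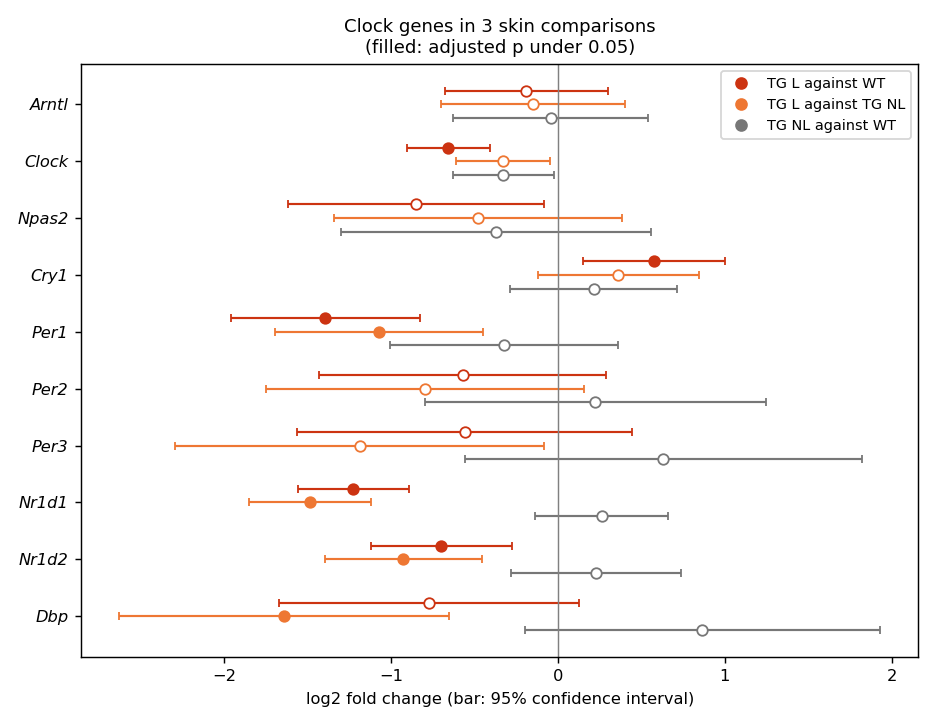
Log2 fold change (horizontal axis) of each clock gene in 3 skin comparisons, with bars for the 95% confidence interval and filled points for an adjusted p under 0.05 from edgeR. *Nr1d1*, *Nr1d2* and *Per1* are filled and below 0 against both WT and NL skin, *Cry1* alone is filled above 0, and no point of NL against WT is filled.

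All L libraries had lower muscle marker means than all WT and NL libraries, as given above. Muscle content and lesion therefore cannot be told apart here, and a call lost with a muscle covariate cannot be assigned to muscle. When the mean of the muscle markers was added to the fit as a covariate, 2 of the 10 genes, *Clock* and *Nr1d1*, were called between L and WT skin, with log2 fold changes of -0.71 and -1.03 and adjusted p of 0.0444 and 0.0292 from edgeR. *Nr1d1* alone was then called between L and NL skin (-1.29, adjusted p = 0.0245). *Per1* kept its sign, at -1.01 against WT with an adjusted p of 0.118. *Nr1d2* was at -0.67 with 0.19, beside -0.70 with 0.016 without the covariate. The adipocyte, hair shaft, neutrophil and endothelial markers also separated L from WT skin, as given above. So did the 5 plasma cell markers, which summed to 433 to 480 CPM in WT, 614 to 646 CPM in NL and 751 to 1220 CPM in L skin. Their mean log2 CPM separated L from WT but overlapped between NL and WT. The T cell markers separated L from WT by mean log2 CPM but not by summed CPM. The part of all these markers in the differences was not tested.

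Of the 17 partner genes of the clock, 2 were higher and 6 lower in L than in WT skin, and 9 did not pass the test in edgeR. These 8 of 17 stand near the 43.1% called among all genes. By direction, 23.0% of all genes were called higher and 20.2% lower. *Nfil3*, the repressor that opposes DBP at D-boxes, was at 11.0, 15.5 and 17.5 CPM in WT, 8.89 and 9.27 CPM in NL and 23.5, 32.9, 37.8 and 49.3 CPM in L libraries. It was 2.44-fold higher in L than in WT skin (adjusted p = 0.0041 from edgeR) and 3.95-fold higher than in NL skin (adjusted p = 0.00346). *Csnk1e*, which encodes a kinase of PER proteins, was 2.18-fold higher than in WT. Among the lower genes were *Rorb*, a nuclear receptor gene, at -2.93 on the log2 scale but under 2 CPM in every library, and the repressor gene *Cry2*, at -1.19. *Cry2* was at 54.1, 58.3 and 49.1 CPM in WT and 29.8, 20.3, 23.6 and 20.5 CPM in L libraries, without overlap, so that *Cry1* and *Cry2* changed in opposite directions. Against NL skin, 2 of the 17 partner genes were higher and 5 lower, among them *Cry2* at -1.30 and *Tef*, a relative of *Dbp*, at -1.38. Of all genes, 25.0% were called there, 13.2% higher and 11.8% lower.

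Among 12 genes known as clock outputs, 1 was higher and 5 were lower in L than in WT skin. *Pdk4*, which encodes a kinase that limits the use of pyruvate, fell by 4.10 on the log2 scale, *Klf9* by 1.84 and *Usp2* by 1.14, while *Noct*, a phosphatase gene with a daily rhythm, was 1.91-fold higher (adjusted p = 0.00151 from edgeR). The 6 of 12 called stand near the 43.1% of all genes, as do the 7 of 13 in the next list. By direction, each of these 2 lists had 5 lower genes, beside 20.2% of all genes called lower and 23.0% called higher. Among 13 genes that glucocorticoids induce, a hormone signal that sets peripheral clocks, 2 were higher and 5 lower, counting *Per1* and *Klf9*, which are in 2 lists each. *Zbtb16* was at 95.9, 132 and 39.4 CPM in WT and 9.74, 3.85, 6.61 and 8.88 CPM in L libraries, a log2 fold change of -3.61. *Tsc22d3*, which encodes GILZ, changed by -2.36 and *Klf9* by -1.84, whereas *Cdkn1a* rose by 0.77 and *Sgk1* by 0.62. Of 10 immediate early genes, edgeR called 0 between L and WT skin, beside 43.1% of all genes. There was 1 at an unadjusted p under 0.05, beside 51.7% of all genes. In NL against WT skin edgeR called 0 genes of these 4 lists, beside 0% of all genes. At an unadjusted p under 0.05 there were 2 of the 17 partner genes and 4 of the 13 glucocorticoid-responsive genes, beside 7.67% of all genes.

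Within L skin the libraries differed from each other. Library L 4 had the most *Dbp*, *Per3*, *Nr1d2* and *Tef* and the least *Nfil3*, *Arntl* and *Npas2*. Library L 7 had the least *Dbp*, *Per3*, *Nr1d2* and *Tef* and the most *Nfil3*, *Cry1* and *Npas2*. Other genes had another order. *Nr1d1* was highest in L 6 and lowest in L 5, *Arntl* was highest in L 6, and the activator *Clock* was lowest in L 7. A gap was formed for each library as the mean log2 CPM of *Arntl*, *Clock* and *Npas2* minus that of *Nr1d1*, *Nr1d2*, *Per3* and *Dbp*, centred on the mean of the tissue. It was -0.58, 0.27, 0.60 and 1.03 in L 4, 5, 6 and 7, -1.18 and -0.23 in NL 2 and 3 and -0.17, -0.35 and 0.60 in WT 8, 9 and 10. The groups overlapped, with means of 0.33 ± 0.68 (SD, n = 4) in L, -0.70 ± 0.67 (SD, n = 2) in NL and 0.03 ± 0.51 (SD, n = 3) in WT skin. The muscle marker means were 9.42, 1.19, 5.15 and 7.22 in L 4, 5, 6 and 7, and their part in this spread was not tested.

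To see which genes moved together between libraries of the same group, group means were removed from log2 CPM and 8 pairs were compared in each tissue, 16 in all. In skin (n = 9) *Per3* and *Dbp* rose and fell together, with r = 0.947 and rho = 0.883 (exact permutation within groups, two-sided p = 0.0139 for both, adjusted p = 0.111 for r and 0.154 for rho). *Arntl* and *Npas2* did so with r = 0.908 and rho = 0.817 (exact permutation p = 0.0139 and 0.0382, adjusted p = 0.111 and 0.204). Without the 2 libraries farthest from the median of *Per3* or of *Arntl*, r was 0.872 and 0.79. *Arntl* and *Dbp*, which peak at opposite times, gave r = -0.743 and rho = -0.683 (exact permutation p = 0.0694 and 0.125, adjusted p = 0.241 and 0.295), and r was -0.347 without 2 libraries. None of the 16 pairs passed the adjusted threshold, whose lowest value was 0.111. *Arntl* and *Nr1d1* gave r = -0.098 in skin.

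Over all 19100 other tested genes of skin, *Tef* ranked 19th by r with *Dbp* (r = 0.953), *Per3* 25th, *Nr1d2* 40th (r = 0.934) and *Hlf*, the third PAR bZIP gene beside *Dbp* and *Tef*, 163rd (r = 0.887). *Npas2* (r = -0.855) and *Nfil3* (r = -0.834) ranked 298th and 409th from the opposite end. *Npas2* ranked 20th by r with *Arntl*, and *Per2* 19th from the opposite end (r = -0.915). The 3 genes outside the clock with the highest r were *Gm14295* (0.989), *Gm28230* (0.983) and *Ipcef1* (0.981) for *Dbp* and *Pcdhga2* (0.969), *Gm2810* (0.96) and *Riok1* (0.96) for *Arntl*. These ranks describe 9 libraries that share tissue makeup and depth.

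**Figure D3:**
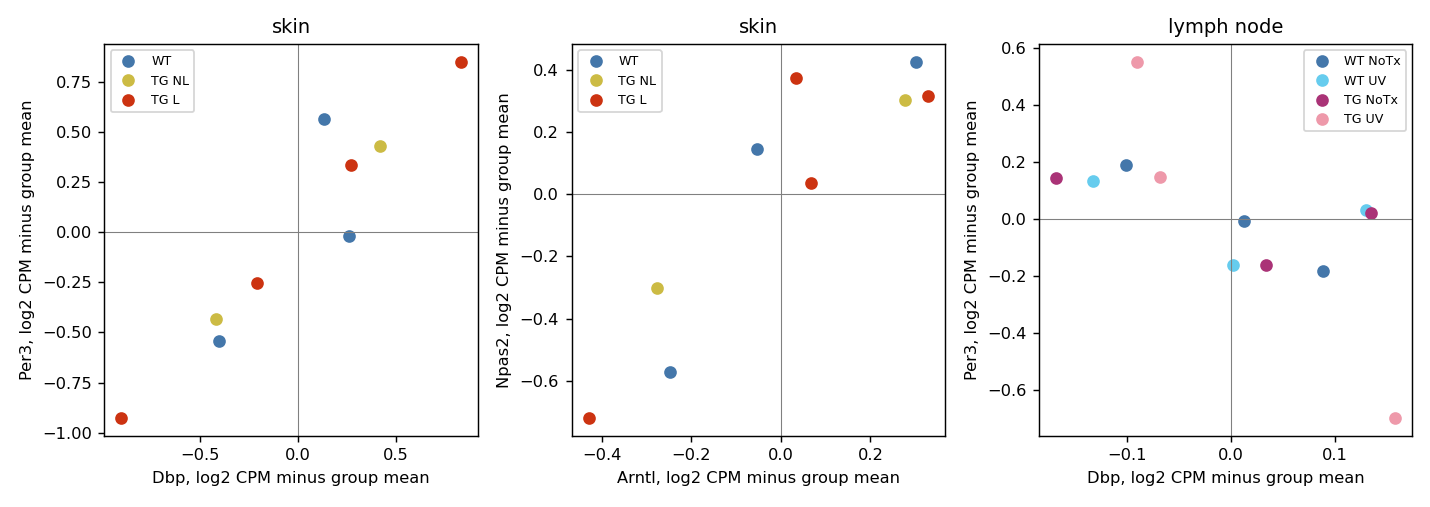
Deviation of each library from its group mean on the log2 CPM scale for *Per3* against *Dbp* in skin and in nodes and for *Npas2* against *Arntl* in skin, coloured by group. The points climb together in both skin panels (r = 0.947 and 0.908) and descend in the node panel (r = -0.671), where the horizontal axis covers a much narrower range.

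The comparison of UV with NoTx nodes in WT mice asked what UVB to the skin left behind in the draining lymph node 2 weeks later. There 2 of the 10 genes were called, *Nr1d1* lower and *Per2* higher, beside 4.98% of all 16173 tested genes. At an unadjusted p under 0.05 there were 4, also counting *Arntl* and *Dbp*, beside 26.3% of all genes. All UV libraries lay above all NoTx libraries for 4 genes (*Arntl*, *Per1*, *Per2* and *Per3*), as for 19.8% of all genes, and below them for *Nr1d1* and *Dbp*, as for 17.3%.

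**Figure D4:**
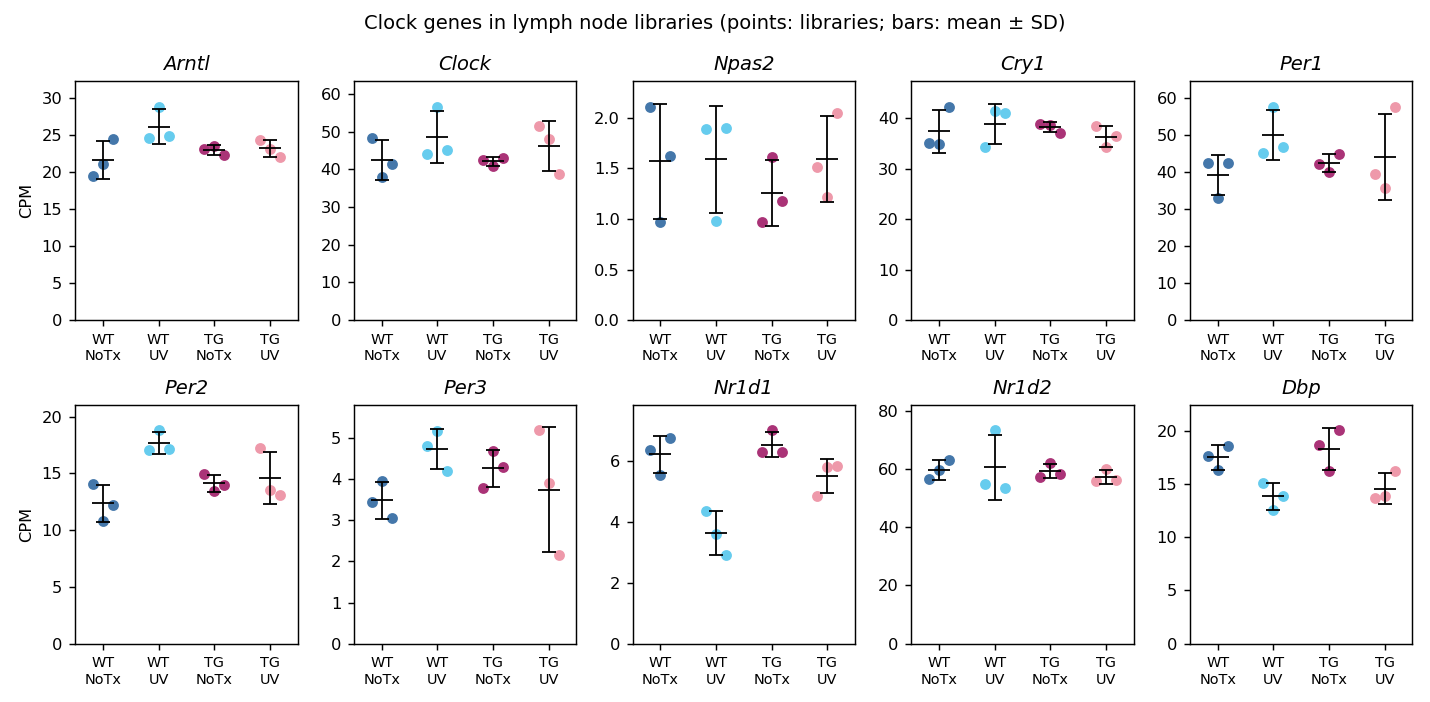
CPM of each clock gene (vertical axis, from 0) in every lymph node library, by genotype and treatment (n = 3 per group), with points for libraries and black bars for the mean ± SD. *Nr1d1* in UV-treated WT nodes lies between 2.91 and 4.36 CPM, below the other 9 libraries, and *Per2* there lies between 17.0 and 18.8 CPM.

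*Nr1d1*, low in nodes, was at 6.37, 5.55 and 6.75 CPM in NoTx and 4.36, 3.60 and 2.91 CPM in UV-treated WT nodes. In *Ifnk* TG nodes it was at 6.30, 7.01 and 6.31 CPM in NoTx and 4.86, 5.81 and 5.84 CPM in UV-treated libraries. All UV libraries were below the NoTx libraries of their genotype, and those of WT mice were the lowest of all 12. In WT nodes *Nr1d1* was 1.72-fold lower after UV (log2 fold change -0.78 ± 0.18 SE, adjusted p = 0.0355 from edgeR), and in TG nodes 1.19-fold lower (-0.25 ± 0.18 SE, adjusted p = 0.703). The difference between these responses was 0.53 ± 0.25 (SE) with an unadjusted p of 0.0563 and an adjusted p of 0.848, and did not pass the test. The call in WT nodes was lost in 7 of the 12 fits that left out 1 library, with adjusted p up to 0.149. In TG against WT nodes after UV, *Nr1d1* was 1.52-fold higher, at an unadjusted p of 0.00541 and an adjusted p of 0.673.

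*Per2*, a repressor gene, was at 14.0, 10.8 and 12.2 CPM in NoTx and 17.0, 18.8 and 17.2 CPM in UV-treated WT nodes. In TG nodes it was at 15.0, 13.5 and 13.9 CPM in NoTx and 17.2, 13.5 and 13.1 CPM after UV. The groups were apart in WT mice and overlapped in TG mice. *Per2* was 1.43-fold higher after UV in WT nodes (log2 fold change 0.52 ± 0.13 SE, adjusted p = 0.0451 from edgeR) and changed by 0.05 ± 0.13 (SE) in TG nodes. The interaction was -0.47 ± 0.19 (SE) with an unadjusted p of 0.0273 and an adjusted p of 0.848. The call in WT nodes was lost in 10 of the 12 fits without 1 library, with adjusted p up to 0.188.

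*Dbp* was at 17.6, 16.3 and 18.6 CPM in NoTx and 15.1, 12.6 and 13.8 CPM in UV-treated WT nodes, and at 18.6, 16.2 and 20.0 CPM in NoTx and 13.6, 13.8 and 16.2 CPM in UV-treated TG nodes. The change was -0.34 ± 0.12 (SE) in WT and -0.33 ± 0.12 (SE) in TG on the log2 scale, with adjusted p of 0.11 and 0.437 from edgeR, and the 95% interval of the difference ran from -0.36 to 0.38. Over both genotypes together, UV against NoTx nodes gave 2 called genes, both lower, *Dbp* at -0.33 ± 0.09 (SE) with an adjusted p of 0.035 and *Nr1d1* at -0.51 ± 0.13 (SE) with 0.0294. This stands beside 8.61% of all genes called and 3.80% called lower. For both genes the call was lost in 8 of the 12 fits without 1 library.

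*Per1* was at 42.5, 32.9 and 42.3 CPM in NoTx and 45.2, 57.6 and 46.8 CPM in UV-treated WT nodes, without overlap, a 1.27-fold difference with an adjusted p of 0.202 from edgeR. In TG nodes it ran from 40.0 to 44.9 CPM in NoTx and from 35.6 to 57.4 CPM after UV, which overlap. *Arntl* was at 19.4, 21.0 and 24.4 CPM in NoTx and 24.6, 28.8 and 24.8 CPM in UV-treated WT nodes, also without overlap, with a log2 fold change of 0.27 and an adjusted p of 0.134. In TG nodes it ran from 22.0 to 24.3 CPM. *Clock* ran from 38.0 to 56.6 CPM over all 12 libraries, *Cry1* from 34.3 to 42.3 CPM, and *Nr1d2* from 53.6 to 73.3 CPM, and neither these 3 genes nor *Per1* and *Arntl* were called in any node comparison. For *Nr1d2* the 95% interval of the UV change in WT nodes was -0.21 to 0.25, narrow enough to leave out a change like that of *Nr1d1* there. *Npas2*, at 0.972 to 2.11 CPM, and *Per3*, at 2.14 to 5.18 CPM, were measured less precisely.

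**Figure D5:**
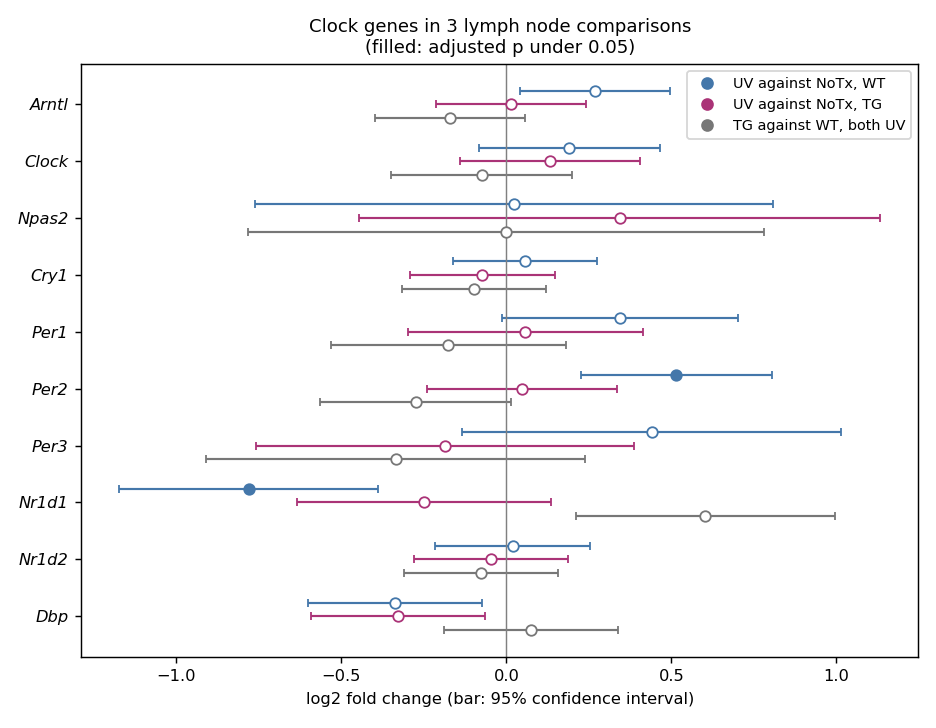
Log2 fold change (horizontal axis) of each clock gene in nodes for UV against NoTx in WT and in *Ifnk* TG mice and for TG against WT after UV, with bars for the 95% confidence interval and filled points for an adjusted p under 0.05 from edgeR. The filled points are *Nr1d1* (-0.78) and *Per2* (0.52) in WT mice.

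In *Ifnk* TG nodes UV called 0 of the 10 genes in edgeR, as of all genes (0%), with 1 gene (*Dbp*) at an unadjusted p under 0.05 beside 9.32% of all genes. TG against WT gave 0 genes in NoTx nodes (0% of all genes), with 0 unadjusted beside 3.39% and log2 fold changes from -0.32 (*Npas2*) to 0.29 (*Per3*), and 0 in UV-treated nodes (0%), with 1 unadjusted (*Nr1d1*) beside 6.99%. The interaction gave 0 (0%), with 1 unadjusted (*Per2*) beside 5.45%. Genotype over both treatments gave 0 beside 0.00618% of all genes, with 1 unadjusted (*Nr1d1*) beside 4.66%. DESeq2 also called 0 of the 10 in each of these comparisons. Of all genes to which it gave an adjusted p, it called 0.845% for UV in TG nodes. For TG against WT it called 0.0072% in NoTx nodes, 0.124% after UV and 0.0324% over both treatments, and 0.018% for the interaction. Among the listed genes around the clock, *Bhlhe40*, a repressor of E-boxes, was 1.53-fold higher after UV in WT nodes (adjusted p = 0.0303 from edgeR), at 15.4, 14.7 and 13.5 CPM before and 24.8, 21.8 and 20.1 CPM after. *Jun*, of the immediate early genes, was 1.89-fold higher there (adjusted p = 0.015). Over both genotypes *Noct* was 1.41-fold higher and *Sult1a1*, of the glucocorticoid-responsive list, 1.83-fold lower after UV. The summed level of 6 erythroid markers moved with UV, from 121 to 262 CPM in NoTx and from 10.8 to 39.5 CPM in UV-treated WT nodes and from 261 to 303 and from 26.1 to 159 CPM in TG nodes. That of 6 fibroblast markers ran from 46.1 to 66.1 CPM and from 13.9 to 37.9 CPM in WT nodes and from 54.8 to 109 CPM and from 19.5 to 58.1 CPM in TG nodes, where the groups overlapped. The sum of 5 node stroma markers ran from 71.9 to 90.6 CPM and from 21 to 55.7 CPM in WT nodes. In TG nodes it ran from 83.7 to 194 CPM and from 26.2 to 82.3 CPM. Neither genotype overlapped in this sum, but both did in mean log2 CPM. That mean ran from 1.86 to 2.55 and from 0.49 to 2.07 in WT nodes, and from 2.28 to 3.3 and from 0.87 to 2.46 in TG nodes. The T cell mean was also lower after UV in WT nodes, as given above. Summed endothelial markers ran from 273 to 322 CPM in NoTx and from 198 to 236 CPM in UV-treated WT nodes. In TG nodes they overlapped, at 262 to 264 and 225 to 268 CPM. The part of these cells in the results was not tested.

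Between node libraries of the same group (n = 12), *Per3* and *Dbp* gave r = -0.671 and rho = -0.699 (exact permutation p = 0.0224 and 0.0193, adjusted p = 0.119 and 0.154), and r was -0.60 without 2 libraries. The sign was opposite to that in skin, and the difference between the tissues was not tested. *Cry1* and *Arntl* gave r = 0.745 and rho = 0.762 (exact permutation p = 0.0826 and 0.0532, adjusted p = 0.241 and 0.213), falling to r = 0.342 without 2 libraries. Over the 16172 other tested genes, *Nr1d2* (r = -0.487), *Tef* (-0.242) and *Hlf* (-0.126) were negative with *Dbp*, unlike in skin, and *Arntl* had *Cry1* at rank 49 and *Nr1d2* at rank 52 (r = 0.742). The genes outside the clock with the highest r were *Nsf* (0.969), *Lynx1* (0.963) and *Ift140* (0.955) for *Dbp* and *Fam220a* (0.907), *Gprasp2* (0.897) and *Bik* (0.889) for *Arntl*. The gap between the activators and the second loop was 0.09, -0.34 and -0.03 in NoTx and 0.19, 0.09 and 0.44 in UV-treated WT nodes, and -0.30, -0.17 and -0.31 in NoTx and 0.12, -0.03 and 0.26 in UV-treated TG nodes. In TG mice every UV library lay above the NoTx libraries, but with *Clock* left out of the gap they overlapped, with a UV library at -0.11 and a NoTx library at -0.10.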

How the data were processed

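Poly-A RNA was sequenced from 9 skin and 12 inguinal lymph node libraries of mice. Per the submitters' processing notes and methods, the authors trimmed paired reads (cutadapt 4.8), aligned them to GRCm38 (STAR 2.7.8a) and estimated counts per gene (RSEM 1.3.3), with FastQC 0.11.8 and MultiQC 1.20 as quality control. The annotation release is not given in the sources used here. The deposited expected counts were not normalized, and they were rounded to whole numbers.

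Per tissue, genes were kept by filterByExpr (10 counts in enough libraries, 15 in total), scaled by TMM and fitted by group with edgeR 4.0.16 (robust quasi-likelihood F-test) in R 4.3.3 with limma 3.58.1. The Benjamini-Hochberg adjustment ran over all kept genes of a tissue, and calls needed an adjusted p under 0.05. SEs were derived from the F statistic. Log2 CPM used a prior count of 2. Libraries held 40499078 to 56511276 counts in skin and 27599809 to 36428435 in nodes, and 3 counts are 5.31e-06% to 1.09e-05% of a library, for counting error only. Scripts were tested on simulated data, and the number of changed genes to be recovered was lowered after skin fell short of the first requirement. Pairs of genes were compared by exact permutation of libraries within groups, 288 permutations in skin and 1296 in nodes.

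The genes and lists were chosen with earlier results of these data known. All 10 clock genes were examined in every comparison, and in comparisons with no call those at an unadjusted p under 0.05 or at the ends of the range are named. Of each other list, at most the 3 called genes with the largest rise and the 3 with the largest fall in a comparison are named, except 1 partner gene that is not reported here, and of genes outside the clock the 3 with the highest r with *Dbp* and *Arntl*. *Thra*, *Sphk2* and the genes named to describe L 4 and L 7 were chosen after their values were seen. Gene positions, exon lengths and overlaps came from GENCODE M21 on GRCm38. Alternatives were DESeq2 1.42.0, RLE and upper-quartile scaling, other count filters, the compared groups alone, no robust fit, *Xist* or muscle markers as a covariate, an adjusted p under 0.01 and each library left out in turn.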

Additional observations from a re-analysis of the deposited data

Results flagged for a closer look

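No result was singled out. The 10 clock genes were tested for a library far from the others of its group in L skin, the only group of at least 4 libraries, and 0 passed Dixon's critical value. No difference between the UV responses of WT and *Ifnk* TG nodes passed the test, and for no gene did all UV libraries of WT mice move one way and all those of *Ifnk* TG mice the other.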

How the results depend on the processing

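The number of called clock genes in L against WT skin was 5, and it was 3 at an adjusted p under 0.01, 2 with muscle markers as a covariate and 3 to 6 without 1 library (3 without WT 8). In L against NL skin it was 4, and it was 1 at 0.01, 2 in the compared groups alone, 1 with the muscle covariate and 1 to 5 without 1 library (1 without NL 2 or NL 3). In UV against NoTx WT nodes it was 2, and it was 0 at 0.01, 1 with no filter on low counts, 0 with *Xist* as a covariate and 0 to 3 without 1 library (0 without any 1 of the WT NoTx libraries, WT UV 8 or 9 or TG NoTx 4 or 6). Over both genotypes it was 2, and it was 0 at 0.01, 1 with no filter and 0 to 3 without 1 library (0 without WT NoTx 1 or 3, TG NoTx 4 or 6, WT UV 8 or 9 or TG UV 10). The cause was not tested, except that a threshold of 0.01 is stricter and that fits with fewer libraries hold less information. DESeq2 called 6, 5, 2 and 2 genes in these comparisons, beside 38.6%, 28.0%, 14.3% and 14.7% of all genes to which it gave an adjusted p. RLE and upper-quartile scaling left each count of called genes within 1.5 times of its value. No called gene changed sign under any alternative. All other comparisons stayed at 0 called genes, and no pair of genes passed the threshold under log2(CPM + 1), RLE scaling or, chosen after seeing the data, without 1 library. No paired analysis was possible because the library numbers are unique within a tissue and the labels do not tie libraries to mice. With 2 to 4 libraries a group, small changes could not be detected, least of all for *Npas2*, *Per2* and *Per3*.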
